A study of Mus musculus with 42 samples.

Results

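Spleens of mice given a control oligodeoxynucleotide (ODN) mixture were compared with spleens of untreated mice, over every gene of the arrays. The samples were taken by their titles: 4 arrays of spleens removed 3 h after control ODN and 6 arrays of untreated spleens, of 42 arrays in all. All 15277 genes that could be named from features with a single gene symbol were members, and no measured value chose them. In the series, mice given CpG ODN were followed from 3 h to 14 days, and the control ODN group was the injected group without CpG ODN. Each array set spleen cDNA in Cy5 against cDNA of a universal mouse reference RNA in Cy3, which the labels describe as a mixture of cell types and tissues. A value is therefore a log2 ratio of spleen over reference, with base and direction inferred from the values, and a difference of 1 on this scale is a 2-fold change.

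All mice were female BALB/c animals of wild type, and the labels used here give no age. The control ODN group received 400 µg intraperitoneally of ODN 1612 and ODN 1471 in equal molar amounts. The untreated group is labelled as untreated and nothing else, so the injection, the handling and the oligonucleotides cannot be told apart. As points of reference, 4 arrays came from spleens 3 h after 400 µg of CpG ODN 1555 and 1466, and 4 from spleens 14 days after the same mixture. The series describes the arrays of a group as independent biological replicates.

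Single-stranded DNA that carries unmethylated CpG motifs is taken up into endosomes and engages the receptor TLR9, which signals through the adaptor MyD88 to NF-kB and to interferon regulatory factors. In mice TLR9 is found in B cells, plasmacytoid and conventional dendritic cells and macrophages, and its engagement in spleen is known for rapid induction of cytokines, chemokines and interferon-stimulated genes. A control ODN is meant to share the chemistry of a stimulatory one without its activity, yet injection, restraint and a load of foreign DNA can each act on the spleen, which filters blood, holds red pulp macrophages and a reserve of monocytes, and exchanges neutrophils and lymphocytes with the circulation.

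The untreated spleens carried the markers of that organ. The mean log2 ratio over 16 B cell markers lay between 2.87 and 3.25 in untreated spleens and between 2.93 and 3.51 after control ODN, and that over 23 erythroid markers between 2.94 and 3.56 and between 2.92 and 3.96. Transcripts of pancreas acinar cells were present on some arrays of both groups: the mean over 13 acinar markers ran from 0.56 to 5.74 in untreated and from 0.91 to 6.43 in control ODN arrays, 0 of 20 acinar markers tested were called by limma, 0 of 20 had an unadjusted p below 0.05, and the part of this tissue in other results was not tested beyond a fit with the acinar mean as a covariate, which called 563 genes.

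The control ODN arrays were not alike. Replicate 4 had a mean correlation of 0.892 with the other control ODN arrays and of 0.939 with the untreated ones, whereas replicates 1 to 3 had 0.91, 0.918 and 0.895 with their own group and 0.886, 0.912 and 0.859 with the untreated. The SD of all log2 ratios on an array was 1.19, 1.15, 1.21 and 1.07 on control ODN replicates 1 to 4, against 1.01 to 1.08 on the untreated arrays. Replicates 1 to 3 thus had a wider spread than any untreated array, and replicate 4 lay within the untreated range. The part of this spread in the differences below was not tested beyond a fit that holds it. The database numbers in the titles fall into runs, and the 4 control ODN arrays share a run with no untreated array, so run and treatment cannot be told apart in this comparison.

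The difference after control ODN was small. Among the cell type and pathway lists, markers of platelets and neutrophils had the highest medians, and no interferon-stimulated gene, cytokine or chemokine of the lists was called by limma (6, 8 and 7 of them at an unadjusted p below 0.05). Of 15084 genes tested, 531 were called at an adjusted p below 0.05 (3.52%), 369 of them higher after control ODN (2.45%) and 162 lower (1.07%). Every count of called list members below is to be read beside these shares. The median log2 difference over all genes was 0.06, that of the size of the called ones 0.71, and 71 called genes differed by at least 1, of which 63 were higher and 8 lower. With 4 arrays against 6, a gene's difference had a median standard error of 0.17. Groups did not overlap for 526 of the 13968 genes measured on all 10 arrays (3.77%), 316 higher (2.26%) and 210 lower (1.5%).

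These counts rest on single arrays. Without control ODN replicate 4 the fit called 2331 genes, without replicate 1 it called 0 (2375 at an unadjusted p below 0.05), without replicate 3 it called 4 (2174 unadjusted) and without replicate 2 it called 164. Leaving out untreated replicate 1, 2, 5 or 6 gave 188, 155, 140 and 91 genes. A limma fit of the 10 arrays alone, with a spread estimated from them only, called 0 genes, with 3182 at an unadjusted p below 0.05. Quantile normalization between arrays called 222 genes, 100 higher and 122 lower, so the excess of higher over lower calls did not hold under that scaling. Of the 531 genes, 529 kept their sign in every alternative fit that tested them, 0 were called in all 10 fits that left out an array, and 2 were called in 9 of them, of which the chemokine receptor gene Cxcr2 (1.09 ± 0.18, adjusted p = 0.00539) is described here.

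**Figure D1:**
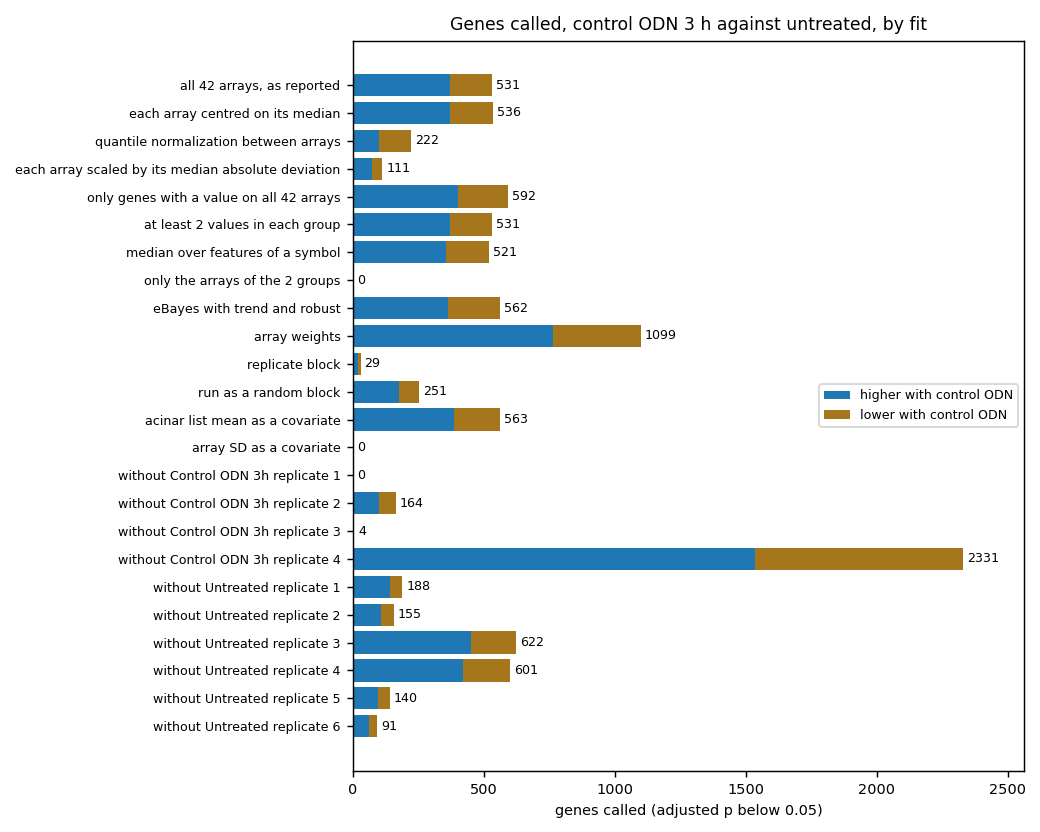
Number of genes called at an adjusted p below 0.05 between control ODN 3 h and untreated spleens in each limma fit, split into genes higher (blue) and lower (brown) after control ODN, with the total at the end of each bar. The fit of all 42 arrays called 531 genes, the fits without a control ODN array between 0 and 2331, and quantile normalization 222 with about as many lower as higher.

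Neutrophil transcripts were higher on most control ODN arrays. Of 19 markers of neutrophils and myeloid granules tested, 4 were called higher and 0 lower, 19 had a difference above 0, and the median difference was 0.67, beside 0.06 and 2.45% called higher over all genes. The mean over 16 of these markers was 1.52 to 2.1 on untreated arrays and 2.09 to 3.2 on control ODN arrays. All genes with a mean log2 ratio of 1 to 2 and above 2 had medians of 0.24 and 0.46, with 6.78% and 9.94% called higher. Fewer or more cells of a type and less or more of its RNA per cell cannot be told apart in whole spleen. Without control ODN replicate 4 the list had 11 called members and a median of 0.85, without replicate 1 it had 0 called and 0.51, and under quantile normalization 2 called and 0.39.

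Cxcr2, the receptor through which ELR chemokines draw neutrophils, had log2 ratios of 3.97, 4.10, 3.97 and 3.44 on control ODN replicates 1 to 4, against 2.00 to 3.14 with a median of 2.99 in untreated spleens. Every control ODN array lay above every untreated one, and replicate 4 was the lowest of the 4. The difference was 1.09 ± 0.18 (adjusted p = 0.00539). S100a9, a subunit of calprotectin and among the most abundant neutrophil transcripts, stood at 8.36, 8.84, 8.14 and 6.61, against 5.07 to 6.96 with a median of 6.21. Here replicate 4 lay inside the untreated range and the other 3 arrays above it, and the difference was 1.86 ± 0.39 (adjusted p = 0.013). Its partner S100a8 was not called at 0.75 ± 0.26 (adjusted p = 0.0861).

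Mmp8, the neutrophil collagenase, was at 4.08, 3.03, 2.30 and 2.18 after control ODN and at 0.67 to 1.73 with a median of 1.35 in untreated spleens. The groups did not overlap, with replicate 1 far above the rest, and the difference was 1.56 ± 0.38 (adjusted p = 0.0259). Under quantile normalization the difference at Mmp8 was 1.18, which limma did not call (adjusted p = 0.0679). Il1r2, the decoy receptor for interleukin-1 that neutrophils and glucocorticoid-treated myeloid cells carry, was at 3.33, 2.89, 3.01 and 1.80, against 0.77 to 1.77 with a median of 1.41. Again all 4 arrays lay above the untreated ones, replicate 4 only just, and the difference was 1.43 ± 0.27 (adjusted p = 0.00723). Itgam, the alpha chain of the complement receptor CR3 on neutrophils and macrophages, differed by 0.67 ± 0.18 (adjusted p = 0.0349).

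Other genes of myeloid cells were called as well. Csta2 and Stfa3, members of the stefin A cluster of cysteine protease inhibitors of myeloid cells, had differences of 1.91 ± 0.38 and 1.44 ± 0.36 (adjusted p = 0.00852 and 0.0294), with replicate 4 of each inside the untreated range, and the copies of this cluster are so alike that a probe may read several of them. Chil4, a chitinase-like protein with close relatives in the genome, was at 2.41, 2.21, 2.16 and 1.51 against 0.60 to 1.06 with a median of 0.88. No array of a group reached the other group, and the difference was 1.21 ± 0.23 (adjusted p = 0.00723). Slfn4, a Schlafen family gene of myeloid cells, had 1.79, 1.39, 2.19 and 0.60 against -0.76 to 0.58 with a median of -0.07. Its lowest control ODN array stood next to the highest untreated one, and the difference was 1.57 ± 0.31 (adjusted p = 0.00791). Lcn2, the iron-siderophore-binding protein of granules, was not called (difference 1.00 ± 0.32, adjusted p = 0.0672).

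**Figure D2:**
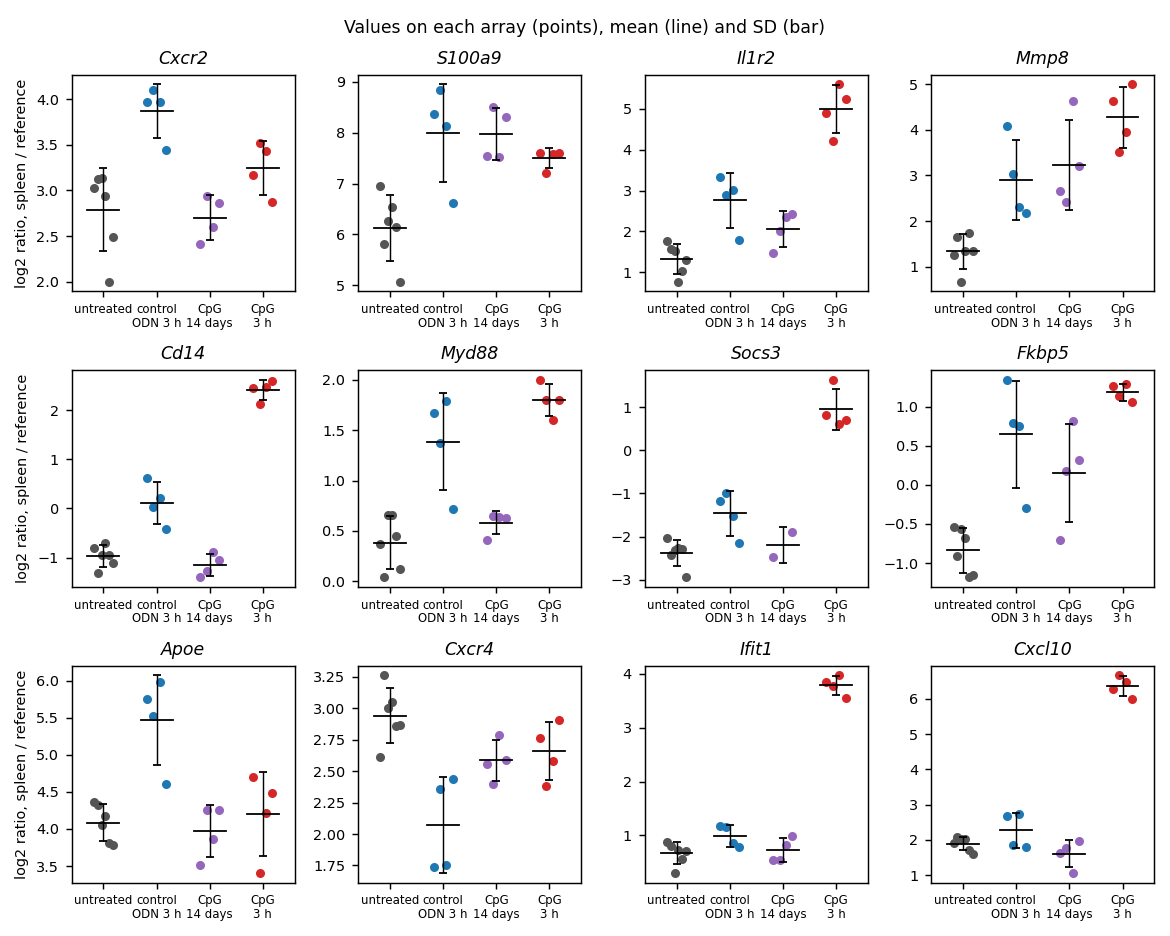
Log2 ratio of spleen over reference for 12 genes on each array (points) of untreated spleens, control ODN 3 h, CpG ODN 14 days and CpG ODN 3 h, with the mean (line) and SD (bar) of each group. Control ODN arrays lie above the untreated ones for Cxcr2, Il1r2, Mmp8, Cd14, Myd88, Fkbp5 and Apoe and below them for Cxcr4, while Ifit1 and Cxcl10 overlap the untreated arrays and only the CpG ODN 3 h arrays stand far above.

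Markers of monocytes and macrophages followed. Of 18 tested, 5 were called higher and 0 lower, beside 2.45% and 1.07% over all genes. The median was 0.43, 17 differed by more than 0, and the lowest was Adgre1 at -0.32 ± 0.31. The list had 8 called members without control ODN replicate 4, 0 without replicate 1 or replicate 3, and 2 under quantile normalization with a median of 0.09. Cd14, the co-receptor that passes lipopolysaccharide and nucleic acids to Toll-like receptors, had 0.62, 0.03, 0.22 and -0.41 on the 4 control ODN arrays and -1.32 to -0.70 with a median of -0.94 in untreated spleens. The groups did not overlap, and the difference was 1.09 ± 0.25 (adjusted p = 0.0216). Ccr2, the receptor by which monocytes leave the marrow, was at 4.83, 3.78, 4.03 and 3.64 against 1.53 to 3.80 with a median of 3.15. Replicates 1 and 3 stood above every untreated array and replicates 2 and 4 within their range, and the difference was 1.27 ± 0.34 (adjusted p = 0.0359). Ms4a6d and the scavenger receptor gene Msr1 differed by 1.02 ± 0.22 and 0.64 ± 0.15 (adjusted p = 0.014 and 0.0226), without overlap of the groups.

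Resident macrophages of the red pulp and marginal zone had 1 called gene of 18, Siglec1, the sialoadhesin of marginal metallophilic macrophages, with 1.04 ± 0.30 (adjusted p = 0.0426). The median of that list was 0.55, and it was 0.06 under quantile normalization. Apoe, the lipid carrier made by macrophages, was among the largest differences of the comparison: its values were 5.76, 5.53, 5.98 and 4.61, against 3.79 to 4.36 with a median of 4.12 in untreated spleens. All 4 control ODN arrays were above the highest untreated one, replicates 1 to 3 by more than 1, and the difference was 1.38 ± 0.27 (adjusted p = 0.00791). Under quantile normalization the difference at Apoe was 0.78, which limma did not call (adjusted p = 0.054).

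Among 23 genes of complement and coagulation 3 were called higher and 0 lower, beside 2.45% and 1.07% over all genes (list median 0.24). F13a1, the transglutaminase chain of factor XIII that monocytes and platelets carry, had 3.55, 3.65, 3.39 and 2.84 against 1.41 to 2.66 with a median of 1.93. It separated the groups on every array, with a difference of 1.40 ± 0.26 (adjusted p = 0.00723). C1qb, a chain of the first complement component made by macrophages, and Cfp, which encodes properdin, differed by 0.89 ± 0.25 and 0.78 ± 0.19 (adjusted p = 0.0414 and 0.0239) with overlapping groups. Under quantile normalization F13a1, C1qb and Cfp differed by 0.99, 0.3 and 0.15, and none of them was called by limma (adjusted p = 0.0537, 0.443 and 0.676). Of 25 macrophage activation effectors 2 were called higher, Clec4d (0.92 ± 0.25, adjusted p = 0.0349) and Msr1, and 1 lower, Clec4e (-0.53 ± 0.15, adjusted p = 0.0361). Clec4d and Clec4e encode partner C-type lectins that sense mycobacterial glycolipid, so within that pair 1 was called in each direction. Of 20 dendritic cell markers 0 were called by limma (6 at an unadjusted p below 0.05, median 0.31).

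No gene of the interferon-stimulated list, the list with the highest median after CpG ODN at 3 h, was called after control ODN. Of 29 interferon-stimulated genes tested, 0 were called by limma, 6 had an unadjusted p below 0.05, 18 differed by more than 0 and the median was 0.21, which was 0.00 under quantile normalization. Rsad2 was the highest member at 0.82 ± 0.41 (adjusted p = 0.221) and Ifit3 the lowest at -0.35 ± 0.28. The mean over 27 of these genes was 0.84 to 1.03 on control ODN arrays, 0.53 to 0.88 on untreated arrays and 2.93 to 3.32 on CpG ODN 3 h arrays. The highest control ODN array was thus just above the untreated range, and every CpG ODN array stood far above every control ODN array. Without control ODN replicate 4, 3 of the genes were called, with a median of 0.28. Outside the list, and named here after their values were seen, Slfn4, Trex1, Ifi205 and Adar are also known to respond to interferon. They were called higher at 1.57, 0.57, 0.44 and 0.4, and of these only Slfn4 was called under quantile normalization.

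The upstream sequence is shown for an interferon-stimulated gene, a chemokine known to be driven by both interferon and NF-kB, and a STAT3 feedback inhibitor, so that the letters of these elements can be seen. They were picked after their values were seen. The sequences are the 250 bases before the RefSeq gene start in GRCm38.p6, printed 5′ to 3′ on the gene's strand. Capitals mark matches on either strand to the interferon-stimulated response element GAAANNGAAA, the STAT site TTCNNNGAA and the NF-kB site GGGNNNTTCC, which do not overlap here and which 2.98%, 7.02% and 4.65% of 32851 promoter windows of the same length hold. Ifit1 lies at chr19:34640639-34640888 on the forward strand and the other two on the reverse strand, Cxcl10 at chr5:92348890-92349139 and Socs3 at chr11:117969367-117969616.
Ifit1: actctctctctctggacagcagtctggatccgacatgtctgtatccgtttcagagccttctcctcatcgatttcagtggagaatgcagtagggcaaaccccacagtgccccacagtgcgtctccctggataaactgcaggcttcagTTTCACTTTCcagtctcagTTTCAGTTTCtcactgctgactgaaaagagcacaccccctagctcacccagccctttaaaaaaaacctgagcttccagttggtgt
Cxcl10: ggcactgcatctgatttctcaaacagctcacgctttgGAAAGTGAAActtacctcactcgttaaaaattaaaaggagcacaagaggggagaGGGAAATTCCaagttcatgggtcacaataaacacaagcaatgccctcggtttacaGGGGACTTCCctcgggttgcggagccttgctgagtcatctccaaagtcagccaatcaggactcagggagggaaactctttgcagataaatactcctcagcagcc
Socs3: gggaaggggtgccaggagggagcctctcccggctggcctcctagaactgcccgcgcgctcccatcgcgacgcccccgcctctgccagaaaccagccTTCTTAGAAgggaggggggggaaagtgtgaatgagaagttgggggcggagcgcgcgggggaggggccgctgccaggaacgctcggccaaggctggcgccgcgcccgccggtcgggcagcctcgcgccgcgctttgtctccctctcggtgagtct
In Ifit1 both marked runs are the response element read on the opposite strand. In Cxcl10 the first run is the response element and the other two are NF-kB sites, and in Socs3 the run is a STAT site. A match is a description of letters and says nothing of a factor bound there.

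Ifit1, the antiviral protein that binds foreign RNA caps, had log2 ratios of 1.17, 1.16, 0.86 and 0.78 on control ODN replicates 1 to 4 and 0.31 to 0.88 with a median of 0.72 in untreated spleens. Replicates 1 and 2 lay above the untreated arrays and replicates 3 and 4 within them. The difference was 0.33 ± 0.17 (adjusted p = 0.24, 95% interval -0.02 to 0.67), and CpG ODN at 3 h stood 2.80 ± 0.19 above control ODN (adjusted p = 1.4e-14). Cxcl10, the chemokine for activated T and NK cells, was at 2.68, 1.86, 2.73 and 1.81 against 1.61 to 2.07 with a median of 1.96. Replicates 1 and 3 were above the untreated range and the other two inside it, with a difference of 0.38 ± 0.30 (adjusted p = 0.458, 95% interval -0.22 to 0.98), and CpG ODN exceeded control ODN by 4.08 ± 0.32 (adjusted p = 1.63e-12). Isg15, the ubiquitin-like interferon product, differed by -0.23 ± 0.24 from untreated (adjusted p = 0.605). The guanylate-binding and antigen-processing genes that interferon-gamma induces had 0 of 23 called by limma (5 at an unadjusted p below 0.05), with a median of 0.29 that became -0.04 under quantile normalization. Outside that list, and named after their values were seen, the MHC class II presentation genes H2-Ea, H2-Eb1, H2-Aa and Cd74 were called higher. Their differences were 1.2, 1.17, 0.78 and 0.58, and none of them was called under quantile normalization.

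No cytokine or chemokine of the lists was called: 0 of 24 cytokines (8 at an unadjusted p below 0.05, median 0.13) and 0 of 27 chemokines (7 unadjusted, median 0.19). Tnf, Il6 and Il10, products of TLR9-stimulated macrophages, dendritic cells and B cells, differed by 0.23 ± 0.22, 0.13 ± 0.29 and 0.14 ± 0.20 (adjusted p = 0.549, 0.824 and 0.717). Their 95% intervals were -0.21 to 0.67, -0.45 to 0.71 and -0.27 to 0.55, all below the differences of CpG ODN from control ODN of 2.02 ± 0.24, 3.18 ± 0.31 and 1.50 ± 0.22. Outside the lists, and named after their values were seen, the interleukin-1 family gene Il1f9 and the APRIL gene Tnfsf13 were called higher at 1.12 ± 0.30 and 0.64 ± 0.16 (adjusted p = 0.033 and 0.0298), and neither was called under quantile normalization. The highest chemokine was Ppbp, a platelet product, at 1.07 ± 0.34 (adjusted p = 0.0637), and the lowest was Ccl2 at -0.64 ± 0.25 (adjusted p = 0.118).

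A few genes of the sensing machinery were among the called ones. Of 30 genes of the Toll-like receptor pathway 2 were called higher, Cd14 and Myd88, and 0 lower, beside 2.45% and 1.07% over all genes. The list median was 0.28, and 9 were called without control ODN replicate 4. Myd88, the adaptor of TLR9 and most other Toll-like receptors, was at 1.67, 1.37, 1.79 and 0.72 against 0.04 to 0.66 with a median of 0.41. The groups were apart, replicate 4 standing just above the highest untreated array, and the difference was 1.01 ± 0.19 (adjusted p = 0.00723). CpG ODN at 3 h did not differ from control ODN at this gene by the test (0.41 ± 0.21, adjusted p = 0.162). Tlr9 was not called at 0.52 ± 0.20 (adjusted p = 0.108), with values of 1.11, 0.74, 0.46 and 0.74 against -0.03 to 0.54 with a median of 0.19; replicate 3 fell inside the untreated range.

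Of 28 genes of DNA sensing and nucleic acid uptake 5 were called higher and 0 lower (median 0.24, 12 at an unadjusted p below 0.05). Dnase1l3, a secreted nuclease that clears DNA from cell debris, was at 5.53, 4.99, 5.89 and 4.15 against 3.29 to 4.37 with a median of 3.92. Replicate 4 overlapped the untreated arrays, and the difference was 1.25 ± 0.35 (adjusted p = 0.0407). Slc15a3, an endolysosomal peptide and histidine transporter, was at 1.72, 1.56, 1.66 and 0.26 against 0.14 to 0.75 with a median of 0.27. Replicates 1 to 3 were well above every untreated array and replicate 4 was within them, with a difference of 0.94 ± 0.21 (adjusted p = 0.0148). Msr1 and Stab1, scavenger receptors for polyanions, differed by 0.64 ± 0.15 and 0.63 ± 0.18 (adjusted p = 0.0226 and 0.0394), and Trex1, the cytosolic 3′ DNA exonuclease, by 0.57 ± 0.16 (adjusted p = 0.0423). Trex1 was named after its value was seen, to complete the 5. The list had 2 calls under quantile normalization and had 0 without replicate 1 or replicate 3 and 11 without replicate 4.

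NF-kB targets had 2 of 22 called higher and 0 lower, beside 2.45% and 1.07% over all genes (list median 0.18). Traf1, an adaptor of TNF receptors, was at 3.84, 3.57, 3.60 and 2.22 against 2.04 to 2.61 with a median of 2.36. As with Slc15a3, only replicate 4 fell among the untreated arrays, and the difference was 0.96 ± 0.25 (adjusted p = 0.0317). Nfkb2, which encodes the p100 precursor, differed by 1.11 ± 0.30 (adjusted p = 0.0377, 5 untreated arrays measured). Nfkbia, the inhibitor that NF-kB induces first, was not called at -0.31 ± 0.19 (adjusted p = 0.328) and stood 1.70 ± 0.21 higher after CpG ODN than after control ODN (adjusted p = 8.52e-08). Neither Nfkb2 nor Traf1 was called under quantile normalization, where they differed by 1.02 (adjusted p = 0.0579) and 0.47 (adjusted p = 0.211). Of the 22 genes, 18 differed by more than 0, and the lowest was Cflar, which limma did not call at -0.47 (adjusted p = 0.053). Cflar was called lower under quantile normalization (-0.73, adjusted p = 0.0104) and with scaling by the median absolute deviation (-0.61, adjusted p = 0.0373).

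Cytokine feedback genes had 2 of 20 called higher, both of the SOCS family, and 0 lower, beside 2.45% and 1.07% over all genes (list median 0.09). Socs3, which terminates interleukin-6 and G-CSF signalling, was at -1.17, -0.99, -1.52 and -2.16 against -2.94 to -2.03 with a median of -2.31. Replicates 1 to 3 lay above the untreated arrays and replicate 4 within, with a difference of 0.92 ± 0.27 (adjusted p = 0.0456), against 3.32 ± 0.27 for CpG ODN at 3 h. Cish, a target of STAT5, was at 0.99, 0.58, 1.24 and -0.02 against -0.42 to 0.40 with a median of -0.09. Replicate 4 was again the exception, and the difference was 0.74 ± 0.20 (adjusted p = 0.0349). CpG ODN differed from control ODN at Socs3 by 2.41 ± 0.29 (adjusted p = 8.15e-08) and at Cish by -0.25 ± 0.21 (adjusted p = 0.455).

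Glucocorticoid-induced genes, included because injection and handling can raise corticosterone, gave a split picture. Of 26 tested, 4 were called higher and 0 lower, 7 had an unadjusted p below 0.05 and the median was 0.24. The 4 were called with quantile normalization, with scaling by the median absolute deviation and with runs as a random block as well, and 0 of 26 were called without control ODN replicate 1 or replicate 3. Fkbp5, the co-chaperone that damps the glucocorticoid receptor and a standard readout of it, was at 1.34, 0.79, 0.75 and -0.30 against -1.18 to -0.54 with a median of -0.79. All 4 control ODN arrays were above all untreated ones, with replicate 4 nearest to them, and the difference was 1.48 ± 0.34 (adjusted p = 0.0198).

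Tgm2, a tissue transglutaminase of macrophages, was at 2.44, 2.17, 2.58 and 1.46 against -0.23 to 1.43 with a median of 1.21. The groups did not overlap, and 1 untreated array was far below the other untreated arrays; the difference was 1.16 ± 0.23 (adjusted p = 0.00791). Map3k6, a kinase of the MAP kinase cascades, differed by 0.81 ± 0.21 (adjusted p = 0.0326), and Il1r2 was the fourth. Other genes of the same list did not pass. Tsc22d3, the glucocorticoid-induced leucine zipper, was at 0.24, 0.32, 0.23 and 0.16 against 0.02 to 0.43 with a median of 0.20, inside the untreated range on all 4 arrays, with a difference of 0.02 ± 0.11 (adjusted p = 0.928, 95% interval -0.20 to 0.24). Zbtb16, Sgk1, Ddit4 and Per1 differed by 0.32 ± 0.25, -0.23 ± 0.22, -0.61 ± 0.35 and -0.71 ± 0.31 (adjusted p = 0.461, 0.556, 0.291 and 0.153). CpG ODN at 3 h had 13 of the 26 called higher than untreated. Fkbp5 did not differ between CpG ODN and control ODN by the test (0.54 ± 0.37, adjusted p = 0.32), whereas Il1r2 was 2.24 ± 0.29 higher after CpG ODN (adjusted p = 2.6e-07).

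Other lists of handling or stress had shares of called genes near or below the 3.52% over all genes, or 1 call in a short list, from which nothing is read about these programs. Of 29 immediate early genes 1 was called, Klf4, a zinc finger factor of monocytes and endothelium (0.44 ± 0.12, adjusted p = 0.0336), while Fos and Egr1 differed by -0.16 ± 0.26 and -0.23 ± 0.31 (adjusted p = 0.747 and 0.697). Of 15 heat shock genes 1 was called, Hspb1, a small chaperone, at 0.13, -0.48, -0.46 and -0.25 against -1.50 to -0.86 with a median of -1.19. Its groups did not overlap (difference 0.96 ± 0.26, adjusted p = 0.0381), yet the median of the list was -0.18 and 3 of 15 members differed by more than 0. Hspa1a, the inducible HSP70, was at -0.14 ± 0.19 (adjusted p = 0.701). Of 19 clock genes 0 were called by limma (6 at an unadjusted p below 0.05), with Arntl and Dbp, whose products peak at opposite phases, at 0.56 ± 0.20 and 0.52 ± 0.18 (adjusted p = 0.0899 and 0.0845). The labels give no hour of dissection. Genes of the unfolded protein response, hypoxia, oxidative stress and p53 had 0 called of 19, 20, 20 and 17 by limma (7, 3, 3 and 1 at an unadjusted p below 0.05). Among 19 fasting genes Acot2, a mitochondrial thioesterase, was the only call (0.64 ± 0.18, adjusted p = 0.0431).

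Of 20 B cell markers 2 were called higher and 0 lower, and of 20 T cell markers 2 and 0, beside 2.45% and 1.07% over all genes, each list with a median of 0.27; under quantile normalization the medians were -0.23 and -0.04, so neither direction held across scalings. Cd79a, a signalling chain of the B cell receptor, was at 7.21, 7.56, 6.78 and 5.55 against 4.94 to 6.36 with a median of 5.62. Replicate 4 lay within the untreated range, and the difference was 1.13 ± 0.31 (adjusted p = 0.0367). The other 3 calls were the tetraspanin gene Cd37 (0.61 ± 0.18), the kinase gene Zap70 (0.54 ± 0.16) and the CD6 gene (0.36 ± 0.10), with adjusted p = 0.0431, 0.0459 and 0.0434. None of the 4 was called under quantile normalization. Of the B and T cell markers 15 of 20 and 13 of 20 differed by more than 0. The lowest were Blk at -0.88 and Cd28 at -0.48, which limma did not call (adjusted p = 0.116 and 0.0887). Cd28 lay at 0.38 to 0.70 after control ODN and at 0.94 to 1.23 in untreated spleens. Under quantile normalization Cd28 was called lower (-0.62, adjusted p = 0.0481) and Blk was not (-1.12, adjusted p = 0.0611). Immunoglobulin kappa variable genes are a family counted after its values were seen, whose near-identical copies a probe may not tell apart. Of 123 tested, 8 were called higher (0.83 to 1.33) and 0 lower, with a family median of 0.6, beside 2.45% and 1.07% over all genes. Among all genes with a mean log2 ratio above 2, 9.94% were called higher, and an excess of the family over genes of its level was not tested. With runs as a random block 4 of the 8 were called, and under quantile normalization 0 of the 8. Cd3e, the invariant chain shared by T cells, was not called at 0.35 ± 0.17 (adjusted p = 0.21). Of 18 NK and cytotoxic genes and 12 plasma cell genes 0 were called by limma (2 and 1 at an unadjusted p below 0.05). Ighg1 had the largest difference of any gene, 2.24 ± 0.68, with values of 1.87, 3.16, 1.85 and 0.36 against -1.28 to 0.30 with a median of -0.40. The groups did not overlap but the spread was wide, and it was not called (adjusted p = 0.0529).

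Of 13 genes that place lymphocytes within the spleen, S1pr1 and Gpr183 were called higher and Cxcr4 lower, and with runs as a random block the calls at Cxcr4 and S1pr1 were lost (adjusted p = 0.0531 and 0.0559) while Gpr183 was called (0.0432). S1pr1, the receptor that lets lymphocytes leave tissue, was at 4.79, 4.69, 4.17 and 3.71 against 3.27 to 3.74 with a median of 3.51, with replicate 4 within the untreated arrays. Gpr183, the oxysterol receptor that guides B cells and dendritic cells to the follicle border, was at 3.10, 2.97, 3.09 and 2.06 against 1.74 to 2.19 with a median of 2.00, with the same exception. The differences were 0.83 ± 0.23 and 0.82 ± 0.21 (adjusted p = 0.0409 and 0.0297). Cxcr4, the receptor for CXCL12 that holds cells in marrow and red pulp, was at 1.74, 2.36, 1.75 and 2.44 against 2.61 to 3.26 with a median of 2.94. All 4 control ODN arrays were below all untreated ones, replicates 1 and 3 the most, and the difference was -0.87 ± 0.24 (adjusted p = 0.0381). Under quantile normalization Cxcr4 differed by -1.23 (adjusted p = 0.0144), S1pr1 by 0.25 (0.46) and Gpr183 by 0.44 (0.167). Vpreb2, part of the surrogate light chain of B cell precursors, was lower at 1.54, 1.51, 1.11 and 1.85 against 2.22 to 2.63 with a median of 2.36; the groups did not overlap, and the difference was -0.90 ± 0.25 (adjusted p = 0.0387).

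Markers of megakaryocytes and platelets had the highest median of all 42 lists, 0.74, with 15 of 15 differences above 0, 5 called higher and 0 lower. Gp1bb, a chain of the von Willebrand factor receptor, was at 3.35, 2.36, 2.83 and 1.70 against 1.20 to 1.73 with a median of 1.29 on 5 untreated arrays. Replicate 4 was the array that overlapped, and the difference was 1.19 ± 0.31 (adjusted p = 0.0317). Vwf, the adhesive protein of platelets and endothelium, and Selp, the P-selectin of their granules, differed by 1.09 ± 0.31 and 0.79 ± 0.18 (adjusted p = 0.0424 and 0.0194), and Treml1 by 0.74 ± 0.21 (adjusted p = 0.0421). Gp9 was the fifth. The mean over 11 of the genes was 1.85 to 2.62 on control ODN arrays and 1.23 to 1.88 on untreated arrays. On the CpG ODN 72 h, 7 day and 14 day arrays of the same run as control ODN it was 1.6 to 2.44, 1.99 to 2.17 and 2.03 to 2.21. On the CpG ODN 3 h arrays of other runs it was 1.59 to 1.91. High values of this list were thus not particular to control ODN within the run, and the part of the run was not tested. The list had 0 calls under quantile normalization (median 0.44), 1 with runs as a random block, and 8 without control ODN replicate 4.

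**Figure D3:**
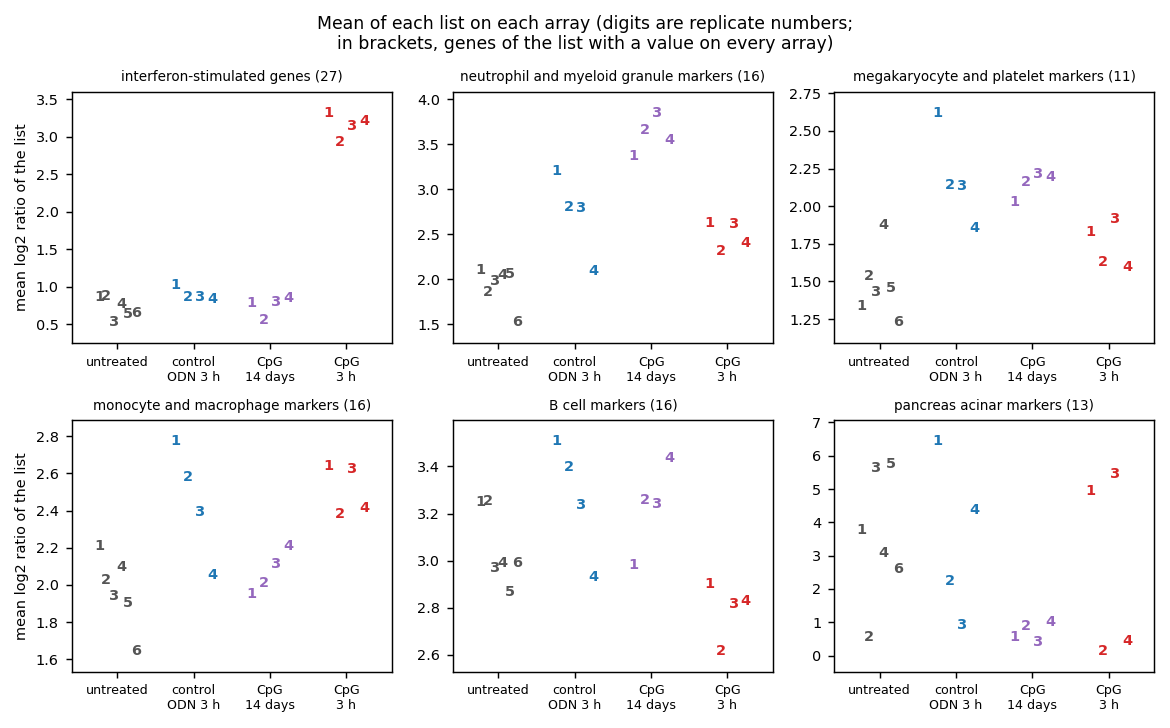
Mean log2 ratio over the genes of 6 lists that have a value on every array (number in brackets) on each array of 4 groups, drawn as the replicate number. Control ODN replicate 4 sits at or near the untreated arrays for neutrophil (2.09), monocyte (2.05) and B cell (2.93) markers, interferon-stimulated genes stand apart only after CpG ODN at 3 h (2.93 to 3.32), and acinar markers range from 0.91 to 6.43 within the control ODN group.

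Of 25 erythroid markers 2 were called higher and 0 lower, beside 2.45% and 1.07% over all genes. The list median was 0.25, and it was -0.13 under quantile normalization. Alas2, the first enzyme of heme synthesis in erythroid cells, was at 6.32, 6.61, 5.30 and 5.11 against 3.42 to 5.29 with a median of 4.78. Replicates 1 and 2 were clear of the untreated arrays and the other two near their upper end, with a difference of 1.27 ± 0.37 (adjusted p = 0.0441). Ermap, an erythroid surface protein, differed by 0.97 ± 0.29 (adjusted p = 0.0494), and the adult globin gene Hbb-b1 by 0.11 ± 0.39 (adjusted p = 0.894). Of 20 endothelial markers 2 were called higher, beside 2.45% over all genes. They were Vwf and Robo4, the guidance receptor of vessels (1.30 ± 0.35, adjusted p = 0.0359), with replicates 3 and 4 of Robo4 inside the untreated range. Of 24 stromal genes 1 was called, Pdgfrb, the receptor of pericytes and fibroblasts, at 0.92, 0.57, 1.12 and 0.36 against -0.13 to 0.28 with a median of 0.08. The groups did not overlap, and the difference was 0.66 ± 0.13 (adjusted p = 0.00828), while CpG ODN at 3 h was lower than untreated at this gene (-0.55 ± 0.13, adjusted p = 0.00275). Of 13 adipocyte and 10 mesothelial genes, which would mark fat or capsule taken with the organ, 0 were called by limma (1 and 2 at an unadjusted p below 0.05).

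Lists of general cell functions had 0 or 1 call each, near or below the 3.52% over all genes, and nothing is read from these counts. Of 27 mitotic and 30 replication genes 0 were called by limma (1 and 7 at an unadjusted p below 0.05), and of 25 proteasome and 19 cholesterol genes 0 (5 and 3 unadjusted). Mki67, the proliferation antigen, differed by -0.33 ± 0.41 (adjusted p = 0.658). Rpl29 was the only ribosomal protein gene called of 37, lower at -0.89 ± 0.23 (adjusted p = 0.0317), and Ndufv1, a subunit of complex I, the only one called of 26 oxidative phosphorylation genes (0.67 ± 0.15, adjusted p = 0.0176).

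**Figure D4:**
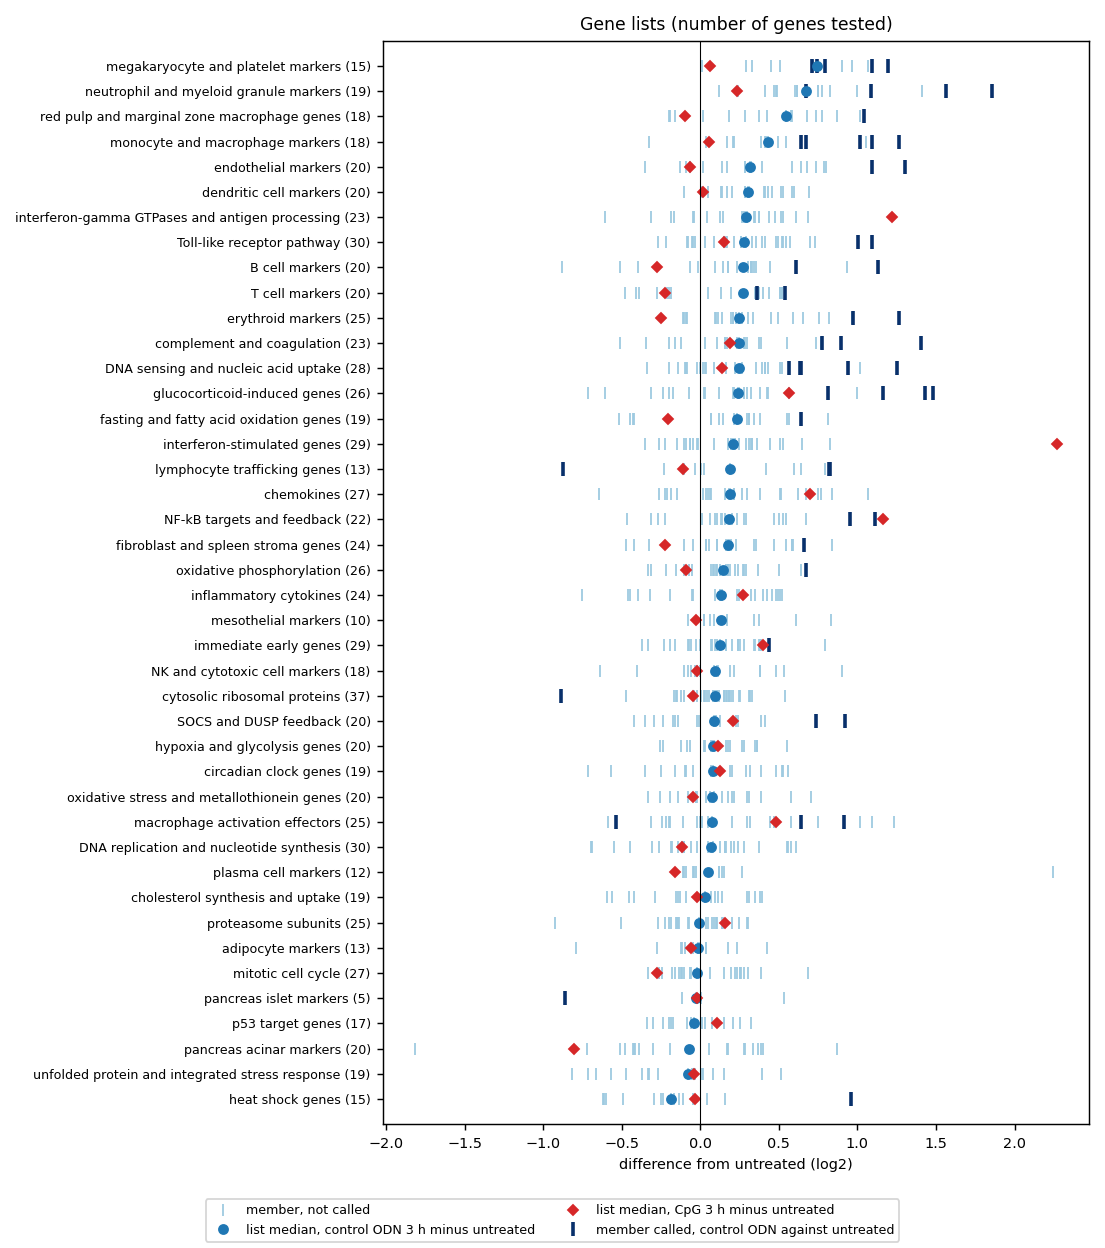
Difference from untreated on the log2 scale for the tested members of 42 gene lists (number in brackets), ordered by the list median for control ODN 3 h (blue points), with members as ticks (dark where called) and the list median for CpG ODN 3 h as red diamonds. Control ODN medians run from -0.18 to 0.74 and are highest for platelet and neutrophil markers, while CpG ODN medians are highest for interferon-stimulated genes (2.27), and both medians are taken against the same 6 untreated arrays.

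Other genes of the rule for naming were spread over many functions. Among the 15 highest called genes without overlap were Lrrc25 (1.11 ± 0.21, adjusted p = 0.00723), a leucine-rich repeat protein of myeloid cells, Serpina3n (1.12 ± 0.25, 0.019), an acute-phase serine protease inhibitor, and Crispld2 (1.17 ± 0.28, 0.0219), a secreted protein that binds lipopolysaccharide. Znhit2, Gpr141b and Tmem51 were among them too, with 1.18 ± 0.23, 1.18 ± 0.26 and 1.17 ± 0.30 (adjusted p = 0.00723, 0.014 and 0.0317). Serpina3n was at 3.34, 2.68, 3.18 and 1.90 against 1.42 to 1.82 with a median of 1.68, with replicate 4 just above the highest untreated array.

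The 15 lowest called genes without overlap had differences from -1.25 ± 0.27 to -0.79 ± 0.18. Zfp142, a zinc finger gene, was at -1.58, -0.80, -2.62 and -0.36 against -0.31 to 0.15 with a median of -0.09. Replicate 3 was far lower than the others and replicate 4 lay just below the lowest untreated array, with a difference of -1.25 ± 0.27 (adjusted p = 0.014). Lats1, a kinase of the Hippo pathway, was at -1.06, -0.67, -1.28 and -0.63 against -0.47 to 0.40 with a median of -0.08, with no overlap and a difference of -0.85 ± 0.17 (adjusted p = 0.00852). Lmod3, Klhl28 and Pls1, an actin-filament nucleator of muscle, a kelch-like protein and an actin-bundling protein, differed by -0.89 ± 0.21, -0.89 ± 0.18 and -0.87 ± 0.22 (adjusted p = 0.02, 0.0093 and 0.0297). Pyy and Rln3, the genes of a gut peptide hormone and of a relaxin family peptide, differed by -0.86 ± 0.21 and -0.86 ± 0.19 (adjusted p = 0.0239 and 0.016). Krt34, Crtac1, Kcnk2, Zcchc7, Dzip1l and Prrx1 had differences from -0.94 ± 0.22 to -0.79 ± 0.18. Of the 15, mean log2 ratios below 0 after control ODN were the rule, with Vpreb2, Cxcr4, Pls1 and Rln3 the exceptions.

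Calls were unevenly spread over the level of a gene in spleen. Of 714 genes with a mean log2 ratio above 2 over all 42 arrays, 9.94% were called higher and 0.28% lower, with a median difference of 0.46. Of 1076 genes between 1 and 2, 6.78% were called higher and 0.56% lower, with a median of 0.24. Of 6405 genes between -1 and 0, 1.26% were called higher and 1.73% lower, with a median of 0.01. The neutrophil, monocyte, platelet, B cell and erythroid lists had means above 1 in both groups. So did the lists of T cells, NK cells, dendritic cells, resident macrophages, complement and coagulation, and endothelium. The lymphocyte trafficking, interferon-gamma and acinar lists did as well. The counts and medians of all these lists are therefore to be read beside those of genes at these levels, and an excess over them was not tested. The spread of ratios was larger on control ODN replicates 1 to 3 than on any untreated array, and its part in this pattern was not tested. With the SD of each array as a covariate, limma called 0 genes, with 1115 at an unadjusted p below 0.05. That alternative was chosen after the data were seen. Because the SD itself differs between most control ODN arrays and the untreated ones, this fit cannot tell spread from group. Scaling each array by its median absolute deviation left 111 calls, 72 higher and 39 lower, of which 104 were among the 531.

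**Figure D5:**
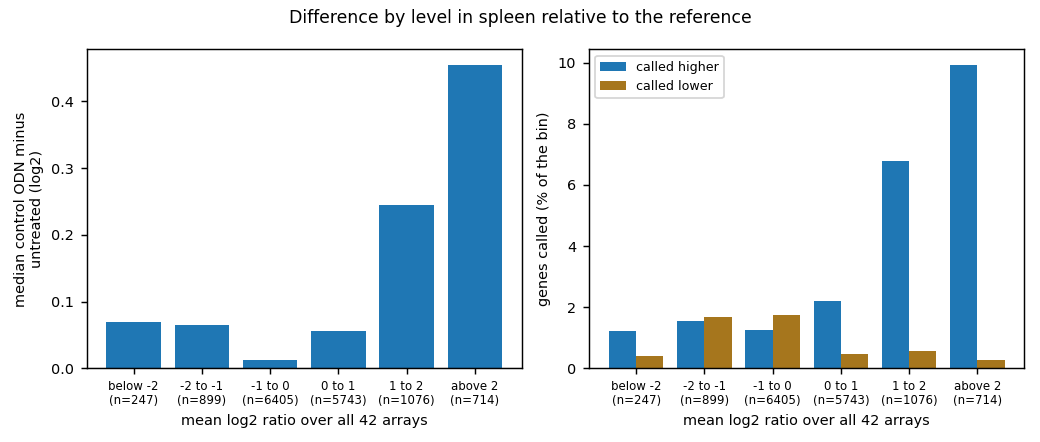
Left, median log2 difference of control ODN 3 h from untreated for genes binned by their mean log2 ratio over all 42 arrays (number of genes in brackets); right, percent of each bin called higher (blue) or lower (brown). Genes above 2 have a median difference of 0.46 and 9.94% called higher, against 0.01 and 1.26% for genes between -1 and 0.

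A comparison within 1 run of database numbers was possible with the spleens taken 14 days after CpG ODN, which is no untreated group. Of 14860 genes tested, 853 differed between control ODN and CpG ODN 14 days (5.74%), 464 higher after control ODN (3.12%) and 389 lower (2.62%). Both comparisons use the same 4 control ODN arrays, so their values are given side by side only. Of the 531 genes called against untreated 529 were tested here, of which 120 were called in the same direction and 1 in the opposite. Cxcr2, Apoe, Cd14 and Myd88 stood 1.17 ± 0.19, 1.49 ± 0.30, 1.27 ± 0.28 and 0.81 ± 0.21 above CpG ODN 14 days (adjusted p = 0.000483, 0.00425, 0.00931 and 0.0211), beside 1.09 ± 0.18, 1.38 ± 0.27, 1.09 ± 0.25 and 1.01 ± 0.19 above untreated.

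Other genes did not differ in that way by the test. S100a9, Mmp8, Fkbp5 and Vwf were 0.02 ± 0.43, -0.33 ± 0.42, 0.49 ± 0.37 and 0.04 ± 0.34 from CpG ODN 14 days (adjusted p = 0.984, 0.651, 0.417 and 0.958). The neutrophil list had 1 gene higher and 12 lower of 19 (median -1.20), and the platelet list 0 and 0 of 15 by limma (median 0.03). Of the genes called higher in both comparisons, the 8 with the highest smaller difference of the pair were Apoe, Csta2, Stfa3, Ccr2, Alas2, Gpr141b, Crispld2 and the histone demethylase gene Kdm6b, which was 1.32 ± 0.32 from untreated and 1.48 ± 0.33 from CpG ODN 14 days (adjusted p = 0.0275 and 0.0114, 3 control ODN and 5 untreated arrays). The corresponding 8 lower genes included Rest, the repressor of neuronal genes (-0.90 ± 0.20 and -0.84 ± 0.23), Cnot9, a subunit of the deadenylase complex (-0.79 ± 0.16 and -0.80 ± 0.18), and Clcn7, the lysosomal chloride transporter (-0.69 ± 0.17 and -0.67 ± 0.18). Mfsd7a, Sh3rf2, Dnah11, Fbxl14 and Slc35g3 were the other 5.

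At the same 3 h, CpG ODN was compared with control ODN. The CpG ODN 3 h arrays share no run of database numbers with the control ODN arrays either, so run and treatment cannot be told apart here. Of 15068 genes tested 3131 differed (20.8%), 1394 higher after CpG ODN (9.25%) and 1737 lower (11.5%). Against untreated, CpG ODN had 1774 of 15253 genes called (11.6%), 1174 higher (7.7%) and 600 lower (3.93%). Of the 369 genes called higher after control ODN, 23 were higher still after CpG ODN and 217 were lower after CpG ODN than after control ODN. Of the 162 called lower, 92 were higher after CpG ODN than after control ODN and 1 was lower. The control ODN arrays enter both comparisons, so these counts are a description.

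Among the genes that CpG ODN took further were Cd14 (1.09 ± 0.25 for control ODN and 3.39 ± 0.25 for CpG ODN, each from untreated), Il1r2 (1.43 ± 0.27 and 3.67 ± 0.27), Slfn4 (1.57 ± 0.31 and 3.81 ± 0.31), Ms4a6d (1.02 ± 0.22 and 3.92 ± 0.22), Serpina3n (1.12 ± 0.25 and 2.89 ± 0.25) and Socs3 (0.92 ± 0.27 and 3.32 ± 0.27). For each of these 6 the difference between CpG ODN and control ODN was called, with adjusted p = 5.61e-08, 2.6e-07, 4.8e-06, 4.53e-12, 9.29e-06 and 8.15e-08 in that order. Genes higher after control ODN than after CpG ODN included F13a1 (-1.70 ± 0.29 for CpG ODN minus control ODN, adjusted p = 2.87e-05), Ccr2 (-1.89 ± 0.37, 0.000307), Apoe (-1.26 ± 0.30, 0.00217) and Cxcr2 (-0.63 ± 0.19, 0.0189). At Chil4, Tgm2, Lrrc25 and Fkbp5 the groups given an ODN differed by -0.07 ± 0.25, 0.25 ± 0.25, 0.32 ± 0.23 and 0.54 ± 0.37, which the test did not call (adjusted p = 0.876, 0.525, 0.337 and 0.32) and which does not show that they acted alike.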

How the data were processed

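Spleen RNA of female BALB/c mice was hybridised to 42 arrays in a reference design, and 4 control ODN 3 h arrays were compared with 6 untreated ones. The authors deposited log2 ratios (spleen over reference) for 30601 features. Their normalization and spot filter were not stated in the sources used here, and base 2 was inferred from the range of -6.86 to 9.78. An array of either group lacked values for 186 to 1740 features. Arrays have no read depth, and their number limits the precision.

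Genes were assigned from the array's annotation table. The 23485 features with 1 symbol were averaged to 15277 genes (5163 with several features), 23367 of those features matched a RefSeq gene ID, and 179 features with several symbols and 6937 with none were left out. No pair of arrays was identical, and correlations of control ODN with untreated arrays ran from 0.84 to 0.951.

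The test was limma (version 3.58.1, R version 4.3.3): lmFit and eBayes on all 42 arrays with 1 coefficient a group and 32 residual degrees of freedom. Genes with at least 3 values in each group were tested, 2-sided, with Benjamini-Hochberg adjustment over all of them, and called below 0.05. A value after ± is the fit's standard error. Arrays whose database numbers lie within 12 of the next form a run (10 runs).

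The members, the 42 gene lists, the panel of 39 genes and the rule for naming genes were chosen with earlier results of these data known. The rule named the 15 highest and 15 lowest called genes measured on all 10 arrays, with groups apart and all features 1 way, passing over clone and predicted-gene symbols; up to 4 called members and the highest and lowest member of each list; the panel; and up to 8 genes in each direction also called against CpG ODN 14 days. An immunoglobulin gene among the 15 highest is not reported singly. Not every gene that the rule named is described. Those left out include Mt1, Mt2, Pdk4, Cdkn1a, Per2, Nr1d1, Npas2 and Dusp1 of the panel. They also include the lowest members of some lists, such as Psme2, Irf1 and Hspd1. None of these was called against untreated. Il12b of the panel had values on too few control ODN arrays to be tested. Alternatives changed the centring, scaling, filters, spread, weights, blocks, thresholds and arrays. The fit was also tested on 42 simulated arrays with independent normal noise for each gene (15084 genes tested). It found 20.9%, 92.5% and 98.5% of the 67, 67 and 65 genes changed by 0.5, 1 and 2 between these 2 groups, with 8 false among 148 calls. That noise had the same spread on every array and nothing shared by the genes of an array. The shares found therefore do not carry over to the real control ODN arrays, which differed in spread. Promoter sequences are from RefSeq (GRCm38.p6). The sequences of the ODN were not used here. Figures were drawn with matplotlib in python.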

Additional observations from a re-analysis of the deposited data

Results flagged for a closer look

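Of 245 groups of 4 to 6 values examined, 7 held a value set apart from the others of its group by Dixon's criterion, which chance alone gives in about 1 group in 20. In 3 of them the value was that of control ODN replicate 4: Gpr183 at 2.06 (2.97 to 3.1 on the other 3 arrays), Slc15a3 at 0.26 (1.56 to 1.72) and Traf1 at 2.22 (3.57 to 3.84). For each of these 3 genes that array lay within the untreated range. The mean of the interferon-stimulated genes was 1.03 on control ODN replicate 1, against 0.84 to 0.86 on the other control ODN arrays. Among the untreated arrays, Mfsd7a was at 0.88 on replicate 5 (0.02 to 0.21 on the others measured), Tgm2 at -0.23 on replicate 4 (1.01 to 1.43) and the mean of the adipocyte markers at 0.53 on replicate 6 (0.89 to 0.96). Without untreated replicate 4 the difference at Tgm2 was 0.92, beside 1.16 with it, and both were called (adjusted p = 0.0111 and 0.00791 by limma).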

How the results depend on the processing

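The count of 531 genes moved by over 1.5 times with quantile normalization (222), scaling by the median absolute deviation (111), array weights (1099), runs as a random block (251), single features in place of genes (947), adjusted p below 0.01 (26) or 0.1 (1534), a size of at least 1 (71), and the 10 arrays alone or the array SD as a covariate (0 and 0). Leaving out 1 array gave 0 to 2331 genes. Centring, the other filters, the median over features, eBayes with trend and the acinar covariate gave 521 to 592. Control ODN and untreated arrays of the same replicate number had correlations of deviations of 0.045, 0.315, -0.11 and -0.127. Over all pairs these ran from -0.39 to 0.315, and they cannot settle whether the numbers pair the samples. A replicate block called 29 genes. Against CpG ODN 14 days the count of 853 was 447 with quantile normalization and 257 with the median absolute deviation, and 197 to 1987 with 1 array left out. Between CpG ODN and control ODN at 3 h the 3131 genes were 1917 to 3808 with 1 array left out, and the replicate block called 3177 there. The cause of these moves was not tested. Of the 81 genes named and called, 44 remained called with quantile normalization, 30 with the median absolute deviation, 53 of 73 with runs as a block, 14 with the replicate block and 0 with the 10 arrays alone or the array SD as a covariate. Without control ODN replicates 1 to 4 it was 0 of 80, 34 of 81, 1 of 80 and 80 of 80, and without 1 untreated array 29 to 76 of 81. In these fits 0 of them changed sign. Signal over background was not used here. In the simulation 20.9% of changes of 0.5 were found, a share that does not carry over to the real arrays. How many changes of that size passed unseen with 4 arrays against 6 was not tested.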
